A study of Mus musculus with 3 samples.

Results

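A set of 10 genes of blood vessel endothelium and of the sinus lining of the spleen were followed through 3 splenic tumours: Pecam1, Cdh5, Kdr, Tek, Tie1, Emcn, Eng, Stab2, Lyve1 and Vwf. They were chosen by name as endothelial and sinus genes, with earlier results of these data known. Every array probe whose RefSeq transcript belongs to one of them was taken. That gave 11 probes for 10 genes out of 32994 named probes for 22911 genes. RNA came from 2 tumours of the genotype LSD1 × p53+/−, labelled #2 and #3 and here called LSD1 × p53 tumour 2 and LSD1 × p53 tumour 3, and from 1 tumour of the genotype p53+/−, here called the p53 tumour. All 3 mice were male, aged 10 weeks and untreated, and all carried p53 haploinsufficiency, so no tumour or spleen of wild-type mice enters the comparison. The histone demethylase LSD1 is the product of Kdm1a. The nature of the LSD1 element in the genotype, the cells it acts in, and whether #2 and #3 stand for mice or lines are not given in the sources used here. The labels call the tissue a splenic tumour, and the growth protocol names splenic cells that had been isolated. Each RNA was run on 1 Agilent expression array with Cy3 as its single dye. The comparison asks what the LSD1 element adds to p53 haploinsufficiency in such tumours.

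A blood vessel is lined by endothelial cells that adhere to each other through VE-cadherin (Cdh5) and PECAM-1 (Pecam1) and that grow and survive on VEGF, sensed by VEGFR2 (Kdr), and on angiopoietins, sensed by TIE2 (Tek) together with TIE1. In the spleen, blood in the red pulp is collected by venous sinuses, whose lining cells carry the scavenger receptor stabilin-2 (Stab2) and take up material from the blood. Several of these proteins are not confined to endothelium: platelets and megakaryocytes contain von Willebrand factor and PECAM-1, early erythroid cells carry endoglin, and blood stem cells carry endomucin and TIE2.

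Signals are given relative to each array's 75th percentile, so that a spot at that percentile reads 1. They can be compared between tumours for the same probe but not between probes. The 75th percentile was 712 intensity units in LSD1 × p53 tumour 2, 554 in LSD1 × p53 tumour 3 and 608 in the p53 tumour, and 51.5% to 55.6% of the 59305 non-control spots were well above background. LSD1 × p53 tumour 3 and the p53 tumour shared slide 1 and scan 1, while LSD1 × p53 tumour 2 was on slide 2 and scan 2. Spic, the transcription factor of splenic red pulp macrophages, was measured at 10.2 in LSD1 × p53 tumour 2, 28.6 in LSD1 × p53 tumour 3 and 16.5 in the p53 tumour. Of the 10 endothelial and sinus genes, 9 were well above background in all 3 tumours, so endothelial transcripts were present in each. Lyve1 was the exception. Only 3 arrays were available, which limits the precision of every comparison, and in bulk tissue fewer endothelial cells and less RNA per endothelial cell cannot be told apart.

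The promoters of 6 of the 10 genes are in the RefSeq table used here (assembly GRCm38.p6). Below are 3 of them, those of the genes with the largest mean differences among the 6: Stab2 and Kdr, lower in both LSD1 × p53 tumours, and Emcn, higher in both. Each window runs from 250 bases before to 50 bases after the gene's start, 5′ to 3′. Capitals mark the motif GGAA, the core bound by ETS factors, or its reverse complement TTCC.
Stab2, chr10:87007893-87008192, minus strand: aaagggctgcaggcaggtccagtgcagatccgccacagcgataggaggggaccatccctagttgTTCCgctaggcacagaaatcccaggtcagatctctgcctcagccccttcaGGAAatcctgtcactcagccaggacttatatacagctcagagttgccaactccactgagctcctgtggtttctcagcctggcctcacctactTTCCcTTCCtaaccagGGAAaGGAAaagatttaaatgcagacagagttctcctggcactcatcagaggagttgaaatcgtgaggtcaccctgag
Kdr, chr5:75978406-75978705, minus strand: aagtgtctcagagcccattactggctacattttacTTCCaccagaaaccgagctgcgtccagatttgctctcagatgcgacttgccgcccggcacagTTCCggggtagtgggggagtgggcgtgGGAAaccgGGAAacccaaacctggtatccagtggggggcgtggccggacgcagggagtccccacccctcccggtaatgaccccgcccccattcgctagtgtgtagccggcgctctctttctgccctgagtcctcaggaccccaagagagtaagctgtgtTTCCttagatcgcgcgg
Emcn, chr3:137340828-137341127, plus strand: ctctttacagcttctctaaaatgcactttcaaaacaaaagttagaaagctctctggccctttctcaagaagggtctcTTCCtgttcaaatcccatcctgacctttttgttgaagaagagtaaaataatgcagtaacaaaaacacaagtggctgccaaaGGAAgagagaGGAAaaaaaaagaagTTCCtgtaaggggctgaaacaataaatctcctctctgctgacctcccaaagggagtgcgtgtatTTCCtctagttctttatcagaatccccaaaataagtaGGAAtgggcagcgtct
ETS factors such as ERG and FLI1 are known regulators of endothelial genes. The core was found 6 times in the Stab2 window, 5 times in that of Kdr and 6 times in that of Emcn. The windows of Tie1, Eng and Tek held 9, 4 and 2 copies, against a median of 3 over the 32851 windows of the table. All 6 members with an entry held it, as did 96.0% of all windows, so its presence does not set them apart. At least as many copies as in Tie1 were found in 1.59% of windows, as in Stab2 or Emcn in 15.7%, as in Kdr in 28.6%, as in Eng in 46.3% and as in Tek in 84.6%. Copies on either strand were counted, and copies that overlap were each counted. The match is of letters only.

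Among the 9 measured genes, 7 had a lower signal in both LSD1 × p53 tumours than in the p53 tumour, and 2, Emcn and Eng, had a higher one. Among all 15240 genes tested, 27.8% were lower in both and 35.0% were higher in both, in each case with the brighter side well above background. Because the members were chosen with earlier results of these data known, this contrast describes them and supports nothing further. In the authors' value table, whose scaling puts all differences lower, the 7 genes were lower in both as well, but so were 42.7% of all genes. The median log2 difference of the 9 genes was -0.42 in LSD1 × p53 tumour 2 and -0.31 in LSD1 × p53 tumour 3, where all tested genes had medians of 0.05 and 0.16. The sizes were modest: the median absolute difference between the genotypes was 0.47 log2 units for the 9 genes and 0.48 for all genes. No member was 2-fold lower in both tumours, where 5.38% of all genes were, and none was 2-fold higher in both, where 3.48% were. limma, which compares the genotypes with 2 arrays against 1, called 0 of the 15240 genes (0.00%), and the members' adjusted p-values lay between 0.967 and 0.981. Of the 15240 genes tested, 568 had an unadjusted p under 0.05 by limma, and none of the 9 members did (the lowest was 0.106, for Emcn). Both differences share the lone p53 array, whose own spread was not measured.

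**Figure D1:**
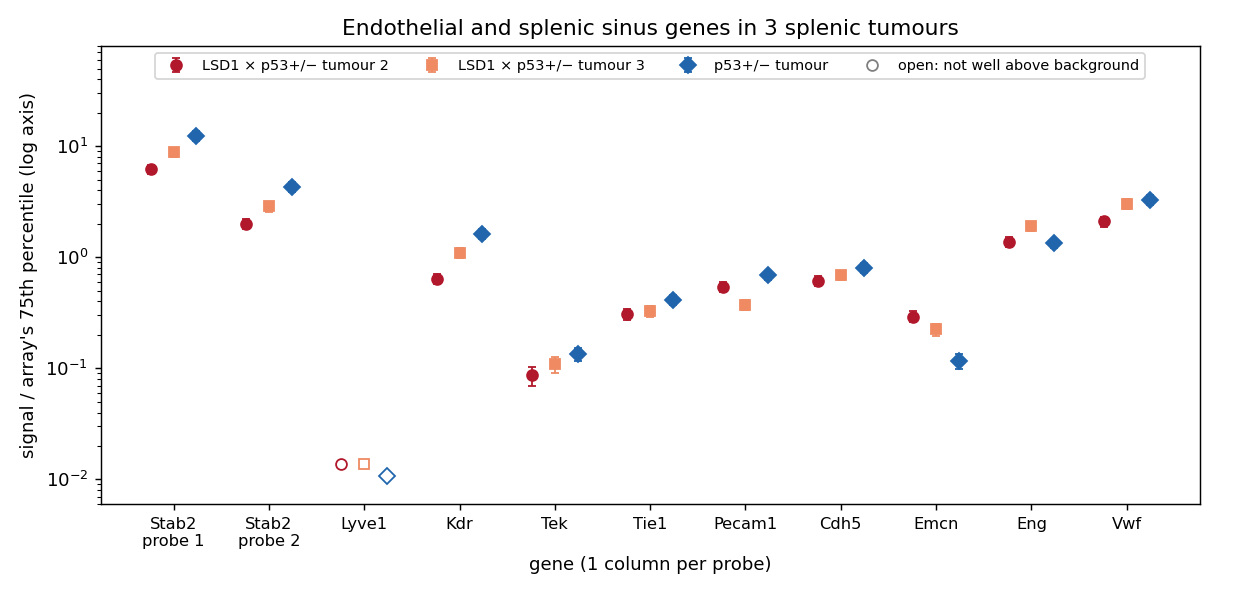
Signal of each of the 11 probes in LSD1 × p53 tumour 2 (circles), LSD1 × p53 tumour 3 (squares) and the p53 tumour (diamonds), relative to the array's 75th percentile on a log axis; bars are the scanner software's error of the spot and open symbols are not well above background. The p53 tumour is highest for both Stab2 probes, Kdr, Tek, Tie1, Pecam1, Cdh5 and Vwf, and lowest for Emcn and Eng, while Lyve1 is at background throughout.

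Stab2, the hyaluronan and scavenger receptor of sinus endothelium, is the member with more than 1 probe. Its first probe (A_55_P1974028) read 6.21 in LSD1 × p53 tumour 2 and 8.81 in LSD1 × p53 tumour 3, against 12.4 in the p53 tumour. Its second (A_51_P402846) read 2.01 and 2.87 in LSD1 × p53 tumours 2 and 3, against 4.29 in the p53 tumour. Both probes put the tumours in the same order, with LSD1 × p53 tumour 2 lowest and the p53 tumour highest. The log2 differences were -0.997 and -0.49 by the first probe and -1.09 and -0.58 by the second, in LSD1 × p53 tumours 2 and 3. With quantile normalization they were -1.21 and -0.95 by the first probe. Across the genotypes limma gave -0.75 ± 0.54 (SE, n = 2 against 1, adjusted p = 0.967). The distance of the p53 tumour from the nearer LSD1 × p53 tumour (0.49 by the first probe, 0.58 by the second) was about the distance between the LSD1 × p53 tumours themselves (0.50 and 0.52).

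Lyve1, the hyaluronan receptor of lymphatic vessels and of some sinusoids and macrophages, was not well above background in any tumour. Its probe (A_52_P686785) read 0.0138, 0.0137 and 0.0107 in LSD1 × p53 tumour 2, LSD1 × p53 tumour 3 and the p53 tumour. The lowest signal well above background was 0.0691, 0.0685 and 0.0533 on the same arrays. No difference can be given for it, and it was the single member left out of the test.

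Among the 3 members that encode receptors for vessel growth factors (Kdr, Tek and Tie1), Kdr showed the largest mean difference. Its probe (A_51_P316553) read 0.638 in LSD1 × p53 tumour 2 and 1.09 in LSD1 × p53 tumour 3, against 1.63 in the p53 tumour. VEGFR2, its product, is the main signalling receptor for VEGF-A. The signal was thus 2.56-fold and 1.49-fold lower in LSD1 × p53 tumours 2 and 3 (-1.35 and -0.58 log2). Both lay below the single p53 reading, as they did for 27.8% of all genes. Among member probes that represent a gene in the test, only that of Kdr was more than 2-fold lower in LSD1 × p53 tumour 2. Of all genes, 11.5% were at least 2-fold lower there. The second Stab2 probe was 2.14-fold lower there. For Kdr limma gave -0.96 ± 0.61 (SE, n = 2 against 1, adjusted p = 0.967). The LSD1 × p53 tumours differed from each other by 0.78 log2 units, more than the 0.58 that separated LSD1 × p53 tumour 3 from the p53 tumour.

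Tek and Tie1 encode the receptor pair of the angiopoietin system. Tek (A_51_P130374) read 0.0865 and 0.109 in LSD1 × p53 tumours 2 and 3, against 0.135 in the p53 tumour. These values are little above the lowest signals well above background, and the scanner's error of the LSD1 × p53 tumour 2 spot was 19.5%. Tie1 (A_51_P177171) read 0.308 and 0.329 in LSD1 × p53 tumours 2 and 3, against 0.413 in the p53 tumour. The Tie1 differences of -0.42 and -0.33 were close to each other. Those of Tek were -0.64 and -0.31, and both genes had the p53 tumour highest.

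The junction genes were also lower in both LSD1 × p53 tumours, but only Pecam1 had LSD1 × p53 tumour 3 lowest. Pecam1 (A_55_P2087087) read 0.543 in LSD1 × p53 tumour 2 and 0.372 in LSD1 × p53 tumour 3, against 0.689 in the p53 tumour. Its differences were -0.34 and -0.89 log2 units, the larger one in LSD1 × p53 tumour 3. Among the lower members this was so for Pecam1 alone as scaled here, and for Tie1 too with normexp (-0.24 and -0.26) and in the authors' value table (-0.64 and -0.69). Cdh5 (A_52_P248604) read 0.615 and 0.689 in LSD1 × p53 tumours 2 and 3, against 0.799 in the p53 tumour. VE-cadherin is restricted to endothelium more narrowly than most other members are. The Cdh5 differences were -0.38 and -0.21 (limma -0.30 ± 0.48, SE, adjusted p = 0.981).

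Emcn, which encodes the sialomucin endomucin of venous and capillary endothelium, went the other way. Its probe (A_51_P153124) read 0.292 in LSD1 × p53 tumour 2 and 0.224 in LSD1 × p53 tumour 3, against 0.116 in the p53 tumour. Both LSD1 × p53 tumours were above the p53 tumour, by 2.51-fold and 1.92-fold (1.33 and 0.94 log2). The gap of 0.94 between the p53 tumour and the nearer LSD1 × p53 tumour exceeded the 0.38 between the LSD1 × p53 tumours. limma gave 1.14 ± 0.51 (SE, n = 2 against 1, adjusted p = 0.967), the largest mean difference of any member as scaled here. With normexp (0.72) it was smaller in size than those of Kdr (-0.84) and Stab2 (-0.74), and in the authors' value table (0.85) smaller than those of Kdr (-1.25), Stab2 (-1.04) and Pecam1 (-0.90). The p53 tumour signal on which both Emcn differences rest is low, near the lowest signal well above background on that array (0.0533), and its spot error was 15.5%. It was 2-fold higher in LSD1 × p53 tumour 2, where 11.7% of all genes were, and fell short of 2-fold in LSD1 × p53 tumour 3, where 15.2% of all genes were 2-fold higher. The gene has 1 named probe, so no second probe checks the direction, and with normexp background correction the differences were 0.84 and 0.59.

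Eng encodes endoglin, a coreceptor for BMP9 and TGF-beta on proliferating endothelium. Its probe (A_55_P2040936) read 1.37 in LSD1 × p53 tumour 2 and 1.91 in LSD1 × p53 tumour 3, against 1.34 in the p53 tumour. LSD1 × p53 tumour 2 was at the level of the p53 tumour (0.04 log2), and LSD1 × p53 tumour 3 was higher by 0.51 log2 units. The direction of Eng depends on the scaling: in the authors' value table it was lower in LSD1 × p53 tumour 2 (-0.18), higher in LSD1 × p53 tumour 3 (0.15), and its mean difference turned to -0.01.

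Vwf encodes von Willebrand factor, stored in endothelial Weibel-Palade bodies and in platelets. Its probe (A_51_P103397) read 2.10 in LSD1 × p53 tumour 2 and 3.02 in LSD1 × p53 tumour 3, against 3.29 in the p53 tumour. LSD1 × p53 tumour 2 alone stood apart (-0.64 log2), and LSD1 × p53 tumour 3 was near the p53 tumour (-0.12, or -0.33 with quantile normalization). All 12 megakaryocyte and platelet markers were measured. They summed to 42.9 and 43.1 in LSD1 × p53 tumours 2 and 3, against 41.8 in the p53 tumour. Itgb3 alone made up 12.7 and 3.84 of these sums in LSD1 × p53 tumours 2 and 3, against 5.36 in the p53 tumour. Of the 12, 2 were lower in both LSD1 × p53 tumours and 2 higher in both (27.8% and 35.0% of all genes), and their median differences were -0.23 and 0.12. Their part in the Vwf and Pecam1 signals was not tested.

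**Figure D2:**
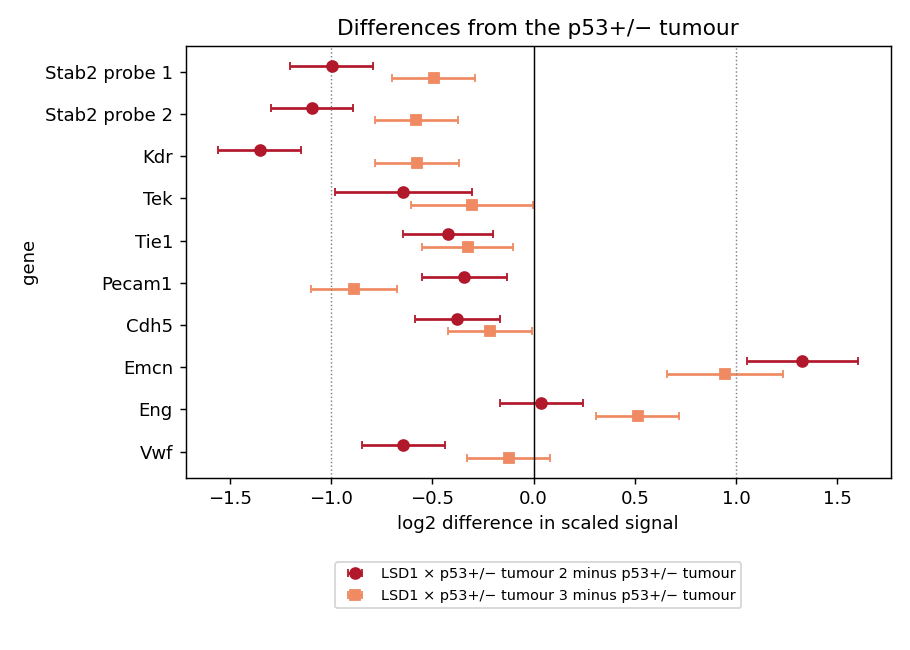
Log2 difference of each measured probe from the p53 tumour, for LSD1 × p53 tumour 2 (circles) and LSD1 × p53 tumour 3 (squares); bars are the error of the difference from the scanner software's spot errors and dotted lines mark 2-fold. All points of Stab2, Kdr, Tek, Tie1, Pecam1, Cdh5 and Vwf lie left of 0, both points of Emcn lie right of it, and Eng lies at 0.04 and 0.51.

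The precision of a spot sets which of these differences exceed measurement error. Repeated spots of 1 probe on the same array differed by a median SD of 0.0387 to 0.0414 log2 units over 291 to 294 probes. The scanner software's own error was wider, about 10% of the signal for the brighter members, which gives 0.20 log2 units for a difference between arrays. In all, 4 members differed from the p53 tumour by more than 2 such errors in LSD1 × p53 tumour 2 (Kdr, Stab2, Vwf and Emcn), and 5 in LSD1 × p53 tumour 3 (Pecam1, Kdr, Stab2, Emcn and Eng). Among all genes 45.8% and 49.8% did so. Kdr, Stab2 and Emcn did so in both tumours and in the same direction, 3 of 9 members against 23.8% of all genes. These errors cover the measurement of a spot and not the spread between mice. By that spread, the p53 tumour lay farther from the nearer LSD1 × p53 tumour than the LSD1 × p53 tumours lay from each other for Cdh5, Tie1 and Emcn, 3 of 9 members, where 33.3% of all genes did.

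The 2 LSD1 × p53 tumours also differed from each other. Of the 9 members, 7 were lower in LSD1 × p53 tumour 2 than in LSD1 × p53 tumour 3, Pecam1 and Emcn being the exceptions. The median difference between them was -0.34 for the members and -0.10 for all genes. LSD1 × p53 tumour 3, which shared its slide with the p53 tumour, had the same 7 members lower within that slide, as being lower in both tumours requires. The larger difference was in LSD1 × p53 tumour 2 for 7 members and in LSD1 × p53 tumour 3 for 2 as scaled here. LSD1 × p53 tumour 2 was alone on its slide, so its slide and the tumour itself cannot be told apart.

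**Figure D3:**
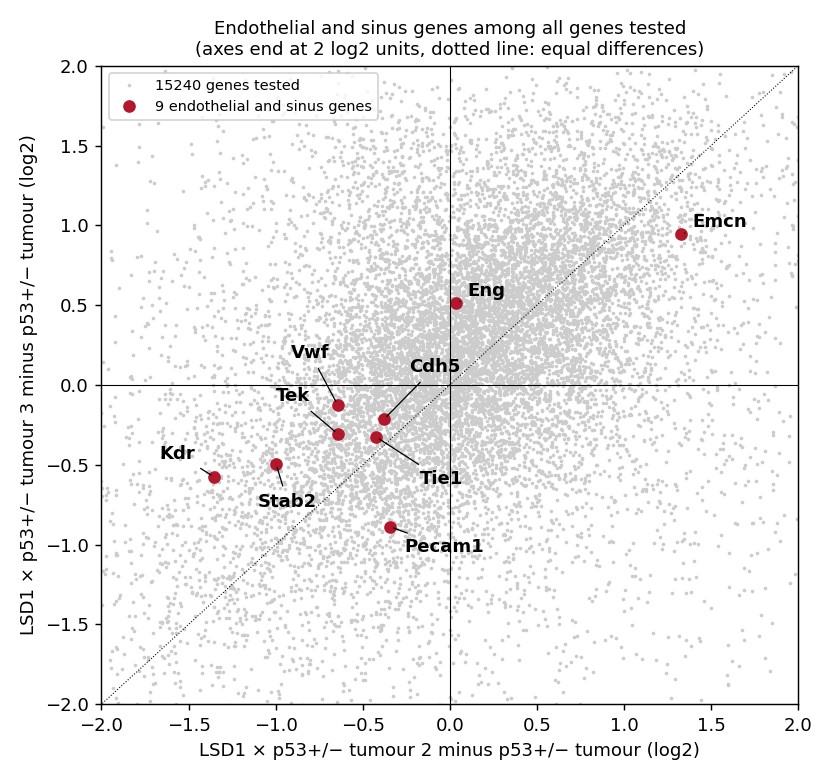
Log2 difference from the p53 tumour in LSD1 × p53 tumour 2 (horizontal) and LSD1 × p53 tumour 3 (vertical) for the 15240 genes tested (grey) and the 9 measured endothelial and sinus genes (red); both axes share the p53 array, so points tend towards the dotted line, and genes beyond 2 log2 units are not shown. The 7 lower members lie at the lower left, with Kdr farthest left and Pecam1 lowest, Emcn lies far to the upper right and Eng just right of the vertical line.

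Other genes of the endothelium were examined in 6 lists, 122 genes in all, of which 102 were well above background in at least 1 tumour. Of these, 60 were lower in both LSD1 × p53 tumours (58.8%, against 27.8% of all genes) and 7 higher in both (6.86%, against 35.0%). The lists were drawn up with earlier results of these data known, so the contrast with all genes describes these genes and supports nothing further. Of the 102, 15 were 2-fold lower in both, as were 5.38% of all genes, and none was 2-fold higher in both, as were 3.48% of all genes. The counts for single lists are to be read against the same shares of all genes. The median differences were -0.56 and -0.37 in LSD1 × p53 tumours 2 and 3, and limma called none of them. Many of these genes are also active in blood cells, and their endothelial part was not measured.

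Of 22 junction and surface genes measured, 12 were lower in both and none higher in both, with median differences of -0.70 and -0.29 in LSD1 × p53 tumours 2 and 3. S1pr1, the sphingosine-1-phosphate receptor of endothelium and lymphocytes, read 0.659 and 0.888 in LSD1 × p53 tumours 2 and 3, against 4.50 in the p53 tumour. Ptprb, the phosphatase VE-PTP that associates with VE-cadherin and TIE2, read 1.91 and 2.27 in LSD1 × p53 tumours 2 and 3, against 4.83 in the p53 tumour. Mmrn2, a matrix protein laid down by endothelium, read 1.78 and 1.76, against 3.60 in the p53 tumour. With Jam3, a junctional adhesion molecule (-1.08 and -1.42 log2), these were the 4 genes of the list at least 2-fold lower in both. Clec14a and Podxl were not well above background in any tumour.

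Of 11 measured genes for VEGF and angiopoietin ligands and receptors, 6 were lower in both and 1, Angpt2, higher in both (0.25 and 0.35), although its LSD1 × p53 tumour 3 difference changed sign in the authors' value table. The medians were -0.39 and -0.26. Flt1, the decoy-like VEGF receptor VEGFR1, read 0.577 and 0.726 in LSD1 × p53 tumours 2 and 3, against 1.95 in the p53 tumour, and was the one gene 2-fold lower in both. Vegfa, the main ligand of Kdr, read 0.459 and 0.865 in LSD1 × p53 tumours 2 and 3, against 1.21 in the p53 tumour, and its other 3 probes were lower in both as well. The coreceptor Nrp1 stood at -1.47 and -0.26 log2 units. The lymphatic growth factor Vegfc stood at -1.31 and -0.37, but its other probe gave 0.27 and 1.93, so its direction is uncertain. Flt4, Pgf, Dll4, Apln and Angpt4 were not well above background in any tumour.

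Around endoglin, 14 of 19 measured genes of BMP and TGF-beta signalling were lower in both LSD1 × p53 tumours and 1, the BMP receptor gene Bmpr1a, higher in both (1.15 and 0.61), with medians of -0.64 and -0.58. With genes at background held to their bounds the medians were -0.42 and -0.56. The other measured Bmpr1a probe gave 3.70 and 2.72 in LSD1 × p53 tumours 2 and 3, so the size of the Bmpr1a difference is uncertain. Id1, a target gene of BMP signalling, read 0.551 and 0.504 in LSD1 × p53 tumours 2 and 3, against 1.24 in the p53 tumour. Id2 and Id3 of the same list were higher in LSD1 × p53 tumour 2 (1.53 and 1.56 log2). In LSD1 × p53 tumour 3 they stood at -0.01 and -0.94, and both were named after their values were seen. The inhibitory SMAD gene Smad7 stood at -1.83 and -1.59 log2 units, the receptor gene Acvr2b at -1.93 and -1.18, and the ligand gene Bmp2 at -2.09 and -0.61. Acvrl1, which encodes the endothelial receptor ALK1 that works with endoglin, read 1.04 and 2.00 in LSD1 × p53 tumours 2 and 3, against 2.17 in the p53 tumour. Acvrl1 was named for its link to endoglin after its values were seen. Gdf2 and Bmp10, which encode the circulating ligands BMP9 and BMP10, were not well above background in any tumour.

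Of 17 measured transcription factors of endothelium, 11 were lower in both and 1, Prox1, higher in both by measured values of 0.05 and 1.85. The sign of Prox1 in LSD1 × p53 tumour 2 changed in the authors' value table. The medians were -0.81 and -1.09. The flow-responsive factors Klf2 and Klf4 read 4.49 and 8.41, and 0.743 and 1.53, in LSD1 × p53 tumours 2 and 3, against 19.0 and 3.11 in the p53 tumour. Mef2c (-2.04 and -1.71 log2) and Nfatc1 (-1.73 and -1.72) were lower too, and both are also active in B cells. The second Nfatc1 probe gave -1.12 and -0.10. Erg and Fli1, the ETS factors named above, stood at -0.81 and -0.15, and at -0.40 and -1.20, both named after their values were seen. The Erg difference in LSD1 × p53 tumour 3 changed sign with quantile normalization.

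Of 18 measured sinus, sinusoid and lymphatic genes, 13 were lower in both and 1, the lysosomal protease gene Ctsl, higher in both (0.10 and 0.61), with medians of -0.79 and -0.39. The sign of Ctsl in LSD1 × p53 tumour 2 changed in the authors' value table (-0.12) and under quantile normalization (-0.03). Clec4g, a lectin of sinusoidal endothelium, read 0.763 and 3.41 in LSD1 × p53 tumours 2 and 3, against 5.70 in the p53 tumour. Madcam1, which encodes the addressin of splenic sinus lining cells around the white pulp, read 0.183 and 0.0229, against 0.293 in the p53 tumour, and the LSD1 × p53 tumour 3 value was not well above background, which puts it at least 4.28-fold lower. Ccl21a, the chemokine of lymphatic vessels and T cell zone stroma, read 3.45 and 0.897 in LSD1 × p53 tumours 2 and 3, against 21.4 in the p53 tumour. Its near-identical gene copies may share that probe. Pdpn, of lymphatic endothelium and stroma, was well above background in the p53 tumour alone and was at least 2.15-fold and 2.17-fold lower. Stab1, the relative of Stab2 that macrophages also express, differed between the tumours, at -0.90 and 0.23, and was named after its values were seen.

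Of 15 measured genes of Weibel-Palade bodies and haemostasis, 4 were lower in both and 3, Tfpi, F2r and Lman1, higher in both, with medians of -0.13 and 0.03. The other 2 measured Tfpi probes were lower in LSD1 × p53 tumour 2 (-0.47 and -0.33) and higher in LSD1 × p53 tumour 3 (0.21 and 0.39). The direction of Tfpi in LSD1 × p53 tumour 2 is therefore uncertain. In the authors' value table F2r changed sign in LSD1 × p53 tumour 3, and Lman1 in LSD1 × p53 tumour 2, where Lman1 did so also with quantile normalization. Selp, which encodes the adhesion receptor P-selectin stored beside von Willebrand factor, read 0.126 and 0.137 in LSD1 × p53 tumours 2 and 3, against 0.209 in the p53 tumour. Thbd, the anticoagulant receptor thrombomodulin, stood at -1.75 and 0.03, the second value changing sign with normexp and quantile normalization, as it did in the authors' value table. Rab27a, of granule transport, stood at 1.48 and -0.26. Plat, the tissue plasminogen activator, was well above background in LSD1 × p53 tumour 3 alone, at least 2.09-fold higher than in the p53 tumour.

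**Figure D4:**
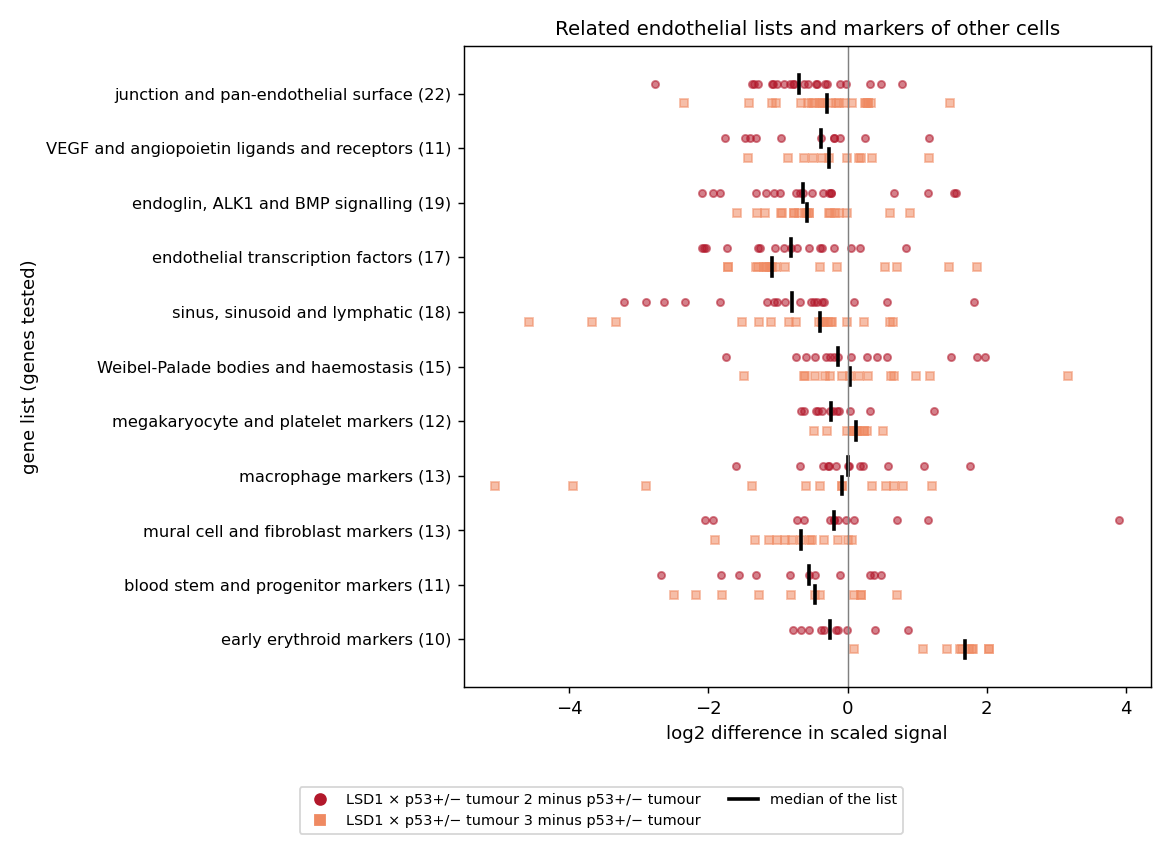
Log2 difference from the p53 tumour of each measured gene in the 6 related endothelial lists and in 5 lists of markers of other cells, for LSD1 × p53 tumour 2 (circles) and LSD1 × p53 tumour 3 (squares), with black bars for list medians; genes at background are drawn at their scanner value. Both medians lie below 0 for the first 5 lists, between -1.09 and -0.26. They also do so for the mural cell and fibroblast markers (-0.20 and -0.67) and the blood stem and progenitor markers (-0.56 and -0.47). The early erythroid markers lie at 1.69 in LSD1 × p53 tumour 3.

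Markers of other cells that carry some of these transcripts were read beside them. The macrophage markers, 13 of 14 measured and Vsig4 at background, summed to 182 and 183 in LSD1 × p53 tumours 2 and 3, against 207 in the p53 tumour, with median differences of 0.01 and -0.09. Such sums are weighted to the brightest probes and do not measure the number of cells. Marco made up 62.7 and 8.28 of them in LSD1 × p53 tumours 2 and 3, against 61.5 in the p53 tumour. Csf1r made up 55.8 and 64.5, against 67.9. Marco and Timd4 stood at -2.89 and -3.94 log2 units in LSD1 × p53 tumour 3 and at 0.03 and 1.10 in LSD1 × p53 tumour 2, Marco in LSD1 × p53 tumour 2 with the opposite sign under quantile normalization. Siglec1 was at least 8.96-fold lower in LSD1 × p53 tumour 3 and stood at 0.58 in LSD1 × p53 tumour 2, and the red pulp macrophage marker Adgre1 was lower in LSD1 × p53 tumour 2 (-1.61). The early erythroid markers, all 10 measured, summed to 427 and 747 in LSD1 × p53 tumours 2 and 3, against 559 in the p53 tumour. Hbb-bt alone made up 356 and 497 of these sums in LSD1 × p53 tumours 2 and 3, against 466 in the p53 tumour. All 10 were higher in LSD1 × p53 tumour 3, and 2 of 10 in LSD1 × p53 tumour 2. The median log2 difference of all tested genes was itself above 0, at 0.16 in LSD1 × p53 tumour 3 and 0.05 in LSD1 × p53 tumour 2. For these 10 markers it was 1.69 in LSD1 × p53 tumour 3 and -0.25 in LSD1 × p53 tumour 2. One of them, Hbb-bt (0.09), changed sign in LSD1 × p53 tumour 3 in the authors' value table (-0.27) and was at 0 under quantile normalization. The part of erythroid cells in the Eng signal was not tested. Blood stem and progenitor markers, 11 of 12 measured and Mecom at background, summed to 10.2 and 23.3 in LSD1 × p53 tumours 2 and 3, against 24.6 in the p53 tumour. Ly6a alone made up 4.57 and 18.4 of these sums in LSD1 × p53 tumours 2 and 3, against 16.1 in the p53 tumour. The part of these cells in the Emcn signal was not tested. Of these markers 5 were lower in both and 1 higher in both, where 27.8% and 35.0% of all genes were. The markers' median differences were -0.56 and -0.47 in LSD1 × p53 tumours 2 and 3. Flt3 stood at -2.68 and -2.18 log2 units and Kit at -1.32 and -0.81. Slamf1 stood at -1.56 and -1.80. Mural cell and fibroblast markers, 13 of 14 measured and Lum at background, summed to 40.3 and 27.2 in LSD1 × p53 tumours 2 and 3, against 38.0 in the p53 tumour. The 13 had median differences of -0.20 and -0.67. Of these 7 were lower in both and none higher in both, where 27.8% and 35.0% of all genes were, among them the matrix gene Dcn (-1.93 and -1.90) and the pericyte receptor gene Pdgfrb (-0.72 and -0.89). Rgs5, another pericyte gene, was well above background in LSD1 × p53 tumour 2 alone, at least 14.9-fold higher than in the p53 tumour. The part of these cells in the endothelial signals was not tested.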

How the data were processed

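Scans were deposited as Agilent Feature Extraction files (version 11.5.1.1, per the submitters' processing notes). Their processed signal is a linear intensity, corrected for background and detrended by the software but not scaled between arrays, per the file headers. Spot errors, median pixel intensities and flags came in the same deposited files. The authors' value table holds those signals multiplied by 0.779 and 0.902 (LSD1 × p53 tumours 2 and 3) and 1.06 (p53 tumour). The medians of its columns were 54.2, 43.5 and 64.2, and the basis of its scaling is not stated.

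Here signals were scaled to each array's 75th percentile and log2-transformed, without outlier spots. Probes were named through RefSeq accessions of a GRCm38.p6 gene table (25126 of 47837 identifiers). The array design uses mm9, so the printed promoter coordinates (GRCm38.p6) place no probe. Each gene's brightest probe was tested if well above background on at least 1 array (15240 of 22908 genes). Lower genes had to be so in the p53 tumour and higher genes in both LSD1 × p53 tumours. A bound uses the array's lowest signal well above background, or the probe's own if higher. limma 3.58.1 (R 4.3.3, Benjamini-Hochberg over all genes, threshold 0.05), tested on simulated data, had 1 residual degree of freedom and took the p53 tumour to vary like the others, so p-values measure only the spread between these samples. The members and related lists were chosen with earlier results of these data known. The rule for names covered all members and up to 4 genes per related list, by largest mean difference. Other genes were named after their values were seen. The planned normexp alternative used median pixel intensities, as the files hold no mean.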

Additional observations from a re-analysis of the deposited data

How the results depend on the processing

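The count of members lower in both LSD1 × p53 tumours was 7 under every alternative that kept both tumours. In either tumour alone 7 were lower, and being lower in both already requires at least 7 there. The members' mean differences kept their sign under all 9 alternatives, with the exception of Eng, which turned to -0.014 in the authors' value table. Most of these alternatives could not turn a sign. The changes of filter left the members' values as they were, and averaging probes could change Stab2 alone. Each measured member lay on the same side in both tumours, so leaving 1 out, or slide as a block, kept its sign. Normexp, quantile normalization and the authors' scaling changed the values of all measured members. limma called 0 genes under the 6 alternatives that could be fitted (lowest adjusted p of a member 0.582). In the main setting 568 of the 15240 genes tested had an unadjusted p under 0.05 by limma. With either LSD1 × p53 tumour left out, or with slide as a block, no residual degree of freedom remained, so those are values with no test. The count of members at least 2-fold lower ranged from 0 to 1 when 1 LSD1 × p53 tumour was left out. Over all genes, 531 were at least 2-fold higher in both tumours and 820 lower. With normexp these counts were 323 and 394, and from the authors' values they were 219 and 1266. Under the authors' scaling the medians of all genes were -0.16 and -0.20 in LSD1 × p53 tumours 2 and 3, and 42.7% of genes were lower in both there. Requiring all 3 arrays above background left 416 lower genes. Leaving out 1 LSD1 × p53 tumour gave 1777 to 2321 higher and 1749 to 1750 lower, and slide as a block, which equals LSD1 × p53 tumour 3 alone, gave 2321 and 1749. The cause of the normexp shift was not tested. No paired analysis was possible because there is a single p53 array, whose label carries no replicate number to share. Lyve1 is limited by its signal, which was at background, and Tek in all 3 tumours and Emcn in the p53 tumour lie near it.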
